A study of Homo sapiens with 6 samples.

Results

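The genes described here are 9 writers, readers and erasers of DNA methylation, followed in a human leukaemia line after 48 h of a CDK4/6 inhibitor. The members were chosen by name, with earlier results of these data known. They are DNMT1, UHRF1 and HELLS for maintenance, UHRF2, the paralogue of UHRF1, DNMT3A and DNMT3B for de novo methylation, and TET1, TET2 and TET3 for removal. All probe sets that the array annotation gives to exactly 1 of these symbols were taken. This gave 20 probe sets out of 54613, and 9 genes out of 19775. The cells were KOPTK1, an established line from T-lineage acute lymphoblastic leukaemia, cultured with 1 µM PD0332991 (n = 3) or with vehicle (n = 3) and hybridised to 6 one-colour Affymetrix arrays. PD0332991, or palbociclib, inhibits the kinases CDK4 and CDK6. The submitters call the replicates biological triplicates, and all come from a single cell line. The p-values therefore set a group difference against the spread between cultures of that line.

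DNA methylation in mammals is the addition of a methyl group to cytosine, mostly in CpG dinucleotides. After replication only the old strand is methylated. UHRF1 binds such CpGs, ubiquitinates histone H3 and PCLAF, and so recruits DNMT1, which copies the mark onto the new strand, while the remodeller HELLS opens the nucleosomes that block it. DNMT3A and DNMT3B methylate CpGs with no template, and the TET enzymes oxidise methylcytosine on the way to its removal. CDK4 and CDK6 phosphorylate the retinoblastoma protein RB, which otherwise holds E2F transcription factors in check, and DNMT3A and TET2 are genes often mutated in blood cancers.

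The deposited values are probe set intensities on a linear scale, and fold changes below are of log2(intensity + 16), PD0332991 minus vehicle, where the constant of 16 shrinks the changes of dim probe sets. Adjusted p-values are from limma with Benjamini-Hochberg adjustment, over 19775 genes for the brightest probe set of a gene and over 54613 probe sets for any other. A gene or probe set is said to have risen or fallen where the adjusted p was under 0.05. Array medians lay between 49.1 and 54.3, Pearson r across genes was 0.976 to 0.979 for a PD0332991 with a vehicle array and 0.993 to 0.996 for arrays of 1 group, and no array stood apart. The intensities of the 13 measured T-lineage markers, CD3D among them, averaged between 267 and 7861 over the arrays. Their sum was 39515 to 40661 with PD0332991 and 31464 to 33916 with vehicle. Of these markers 9 rose, where 15.6% of all genes rose and 13.6% fell. Of the B cell, myeloid, erythroid and stromal, endothelial and epithelial markers, 12 of 19 averaged under 50. Of these 19, CD79A and PECAM1 were the brightest and rose, by 0.94 and 0.55 on the log2 scale, MPO fell by 0.26, and the other 16 were not called. The second CD79A set was at 0.05 and was not called. Their part in the results below was not tested.

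RefSeq promoter windows of GRCh38.p14 were found for all 9 genes, 20 windows in all because several genes have more than 1 start. The 250 bases before each start were searched on both strands for the E2F-type motif TTTNNCGC, where N is any base. It occurred in 3 of the 20 windows, against 5.92% of 35116 promoter windows of the same length in the table. These windows belong to 2 of the 9 genes, and a share per gene over the table was not computed. Windows of UHRF1 and HELLS hold the motif. They are printed with those of DNMT1, UHRF2 and DNMT3B, whose RNAs also fell and whose windows have no match. Windows of all members that fell by their brightest probe set can so be compared. The DNMT3B window and the UHRF1 windows lie inside the annotated genes, which begin at 32762385 and at 4903080. The bases before those gene starts were not searched. Sequences run 5′ to 3′ towards the start, and capitals mark the motif in either orientation.
UHRF1, chr19:4909251-4909500, plus strand: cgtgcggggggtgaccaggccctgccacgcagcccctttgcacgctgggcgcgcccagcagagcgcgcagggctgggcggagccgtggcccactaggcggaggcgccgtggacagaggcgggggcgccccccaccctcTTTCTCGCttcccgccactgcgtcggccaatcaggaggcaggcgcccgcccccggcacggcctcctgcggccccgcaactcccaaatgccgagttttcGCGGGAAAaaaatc
UHRF1, chr19:4909894-4910143, plus strand: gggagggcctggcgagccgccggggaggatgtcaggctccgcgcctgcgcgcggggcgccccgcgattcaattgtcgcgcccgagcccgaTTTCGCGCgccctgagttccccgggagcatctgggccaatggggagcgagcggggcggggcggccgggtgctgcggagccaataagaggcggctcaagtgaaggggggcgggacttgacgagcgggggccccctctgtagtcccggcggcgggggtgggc
HELLS, chr10:94545538-94545787, plus strand: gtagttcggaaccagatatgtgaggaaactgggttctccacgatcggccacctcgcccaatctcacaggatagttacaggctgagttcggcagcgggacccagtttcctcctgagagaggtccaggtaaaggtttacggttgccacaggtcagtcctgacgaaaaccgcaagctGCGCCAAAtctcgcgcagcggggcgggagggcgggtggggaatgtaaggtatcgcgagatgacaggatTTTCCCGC
DNMT1, chr19:10194954-10195203, minus strand: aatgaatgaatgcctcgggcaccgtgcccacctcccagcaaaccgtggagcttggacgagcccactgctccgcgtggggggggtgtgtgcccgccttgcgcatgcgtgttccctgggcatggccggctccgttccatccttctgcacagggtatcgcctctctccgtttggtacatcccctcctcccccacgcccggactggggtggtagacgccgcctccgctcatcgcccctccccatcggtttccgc
UHRF2, chr9:6412949-6413198, plus strand: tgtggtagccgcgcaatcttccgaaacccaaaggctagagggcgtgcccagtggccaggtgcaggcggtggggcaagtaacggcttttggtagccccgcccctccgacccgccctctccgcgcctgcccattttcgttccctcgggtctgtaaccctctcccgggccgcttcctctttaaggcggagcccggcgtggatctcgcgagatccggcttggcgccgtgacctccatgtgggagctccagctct
DNMT3B, chr20:32779602-32779851, plus strand: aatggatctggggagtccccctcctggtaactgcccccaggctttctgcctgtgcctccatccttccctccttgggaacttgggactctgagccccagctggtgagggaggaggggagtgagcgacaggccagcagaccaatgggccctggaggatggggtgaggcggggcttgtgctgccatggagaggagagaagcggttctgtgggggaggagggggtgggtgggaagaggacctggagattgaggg
In the UHRF1 windows the matches lay at −112 to −105 and at −14 to −7 of the first start and at −160 to −153 of the second, and the third UHRF1 window has none. In HELLS they lay at −76 to −69 and at −8 to −1. A match is a run of letters and not a measured binding site, and its absence shows only that these letters are not in the window. The windows also differ in CpG content, which was a median of 11 CpGs over the table. DNMT3B has 3 in its window, DNMT1 21, UHRF2 23, HELLS 18 and UHRF1 between 28 and 41.

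All 3 maintenance genes and UHRF2 fell after PD0332991, the de novo genes moved in opposite directions, and of the TET genes TET2 rose by its brightest probe set. By brightest probe set 5 of the 9 members fell, where 13.6% of all genes did, and 2 rose, where 15.6% did, so that 7 changed in either direction against 29.3% of all genes. TET1 and TET3 did not pass the test. The groups did not overlap for 7 members, against 43.0% of all genes. Over all probe sets of the members, 10 of 20 were lower, 5 higher and 5 not called, where 10.2% and 10.7% of all probe sets were lower and higher. The groups did not overlap for 16 of the 20, against 36.7% of all probe sets. The median log2 fold change was −0.45 over the members and 0.01 over all genes. In RNA from whole cultures, fewer cells with a transcript and less of it per cell cannot be told apart.

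**Figure D1:**
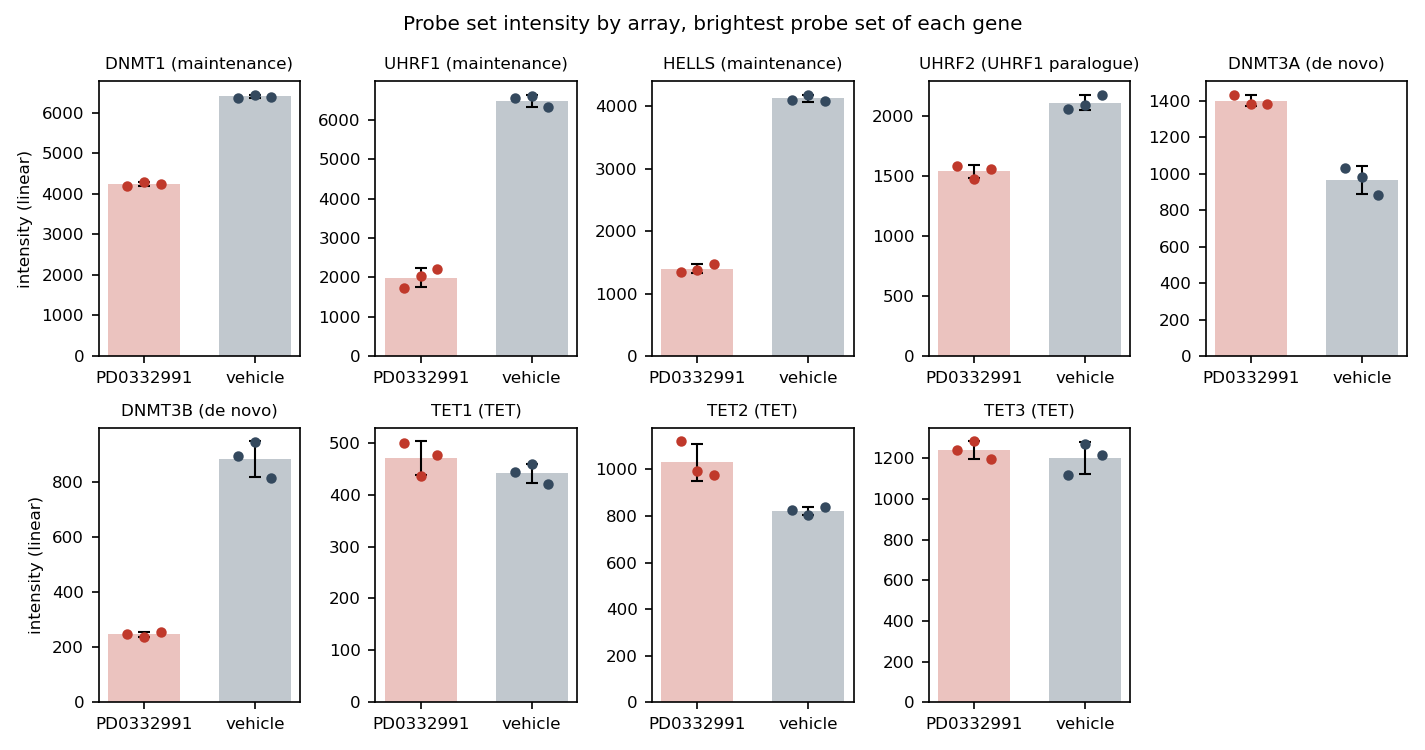
Linear intensity of the brightest probe set of each gene, with PD0332991 left and vehicle right in each panel. Points are arrays, bars are means and error bars are SD (n = 3 each). DNMT1, UHRF1, HELLS, UHRF2 and DNMT3B lie lower with PD0332991 on every array, DNMT3A and TET2 lie higher, and TET1 and TET3 overlap. Heights are not comparable between panels.

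UHRF1, the reader that marks newly replicated CpGs for DNMT1, had the largest decrease of the maintenance genes by brightest probe set. Its intensity was 1733, 2021 and 2219 on the PD0332991 arrays, against 6569, 6602 and 6322 on the vehicle arrays. All 3 PD0332991 arrays were far below the vehicle arrays, and they spread more among themselves, with an SD of 244 against 153. The log2 fold change was −1.71 (SE 0.10, limma adjusted p = 1.1e-04), which is 3.26-fold lower. Only 214 of 19775 genes had a more negative fold change. The UHRF1 gene lies on chromosome 19 (GRCh38.p14, 4903080 to 4962154) and has 1 probe set here.

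UHRF2, its paralogue, binds methylated and hydroxymethylated DNA and does not replace UHRF1 in maintenance in mouse cells. It had intensities of 1583, 1474 and 1558 with PD0332991, against 2059, 2095 and 2180 with vehicle. The groups did not overlap, and the difference was small next to that of UHRF1, at −0.45 on the log2 scale (SE 0.06, limma adjusted p = 0.0021). On each array the log2 value of UHRF1 minus that of UHRF2 was set to a vehicle mean of 0. It was −1.25 ± 0.20 with PD0332991 and 0 ± 0.07 with vehicle (SD, n = 3 each). The two-sided exact permutation p of this difference was 0.1, the smallest that 3 against 3 arrays allow. UHRF2 lies on chromosome 9 (6413199 to 6507054).

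HELLS, the remodeller also called LSH, was measured by 5 probe sets, and every one of them fell with no overlap of groups. The brightest read 1337, 1370 and 1479 with PD0332991, against 4104, 4188 and 4089 with vehicle. The spread was small in both groups, with an SD of 74.2 with PD0332991 and 53.5 with vehicle, and the log2 fold change was −1.55 (SE 0.06, limma adjusted p = 3.1e-05). The other 4 probe sets ran from −2.05 (SE 0.08, adjusted p = 4.6e-05) to −1.16 (SE 0.09, adjusted p = 4.4e-04). The probe set at −2.05 read 174, 166 and 190 with PD0332991, against 776, 825 and 739 with vehicle. The one at −1.16 read 557, 565 and 657 with PD0332991, against 1413, 1347 and 1275 with vehicle. These sets share a direction but not a size, and their 95% intervals, −2.24 to −1.85 and −1.38 to −0.95, do not meet. The dimmest, at 25.3 ± 5.99 with PD0332991 and 88.2 ± 14.6 with vehicle (SD, n = 3 each), is close to the constant of 16. HELLS lies on chromosome 10 (94545788 to 94613905).

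DNMT1, the maintenance methyltransferase, fell least of the 3. Its 1 probe set, which ends in _s_at and so can match several transcripts, read 4204, 4293 and 4247 with PD0332991, against 6367, 6448 and 6398 with vehicle. Arrays within a group differed by little, with an SD of 44.6 with PD0332991 and 41.2 with vehicle, and the groups lay far apart. The log2 fold change was −0.59 (SE 0.05, limma adjusted p = 4.0e-04), so that the PD0332991 mean was 66.3% of the vehicle mean, whereas it was 30.6% for UHRF1 and 33.8% for HELLS. DNMT1 lies on chromosome 19 (10133346 to 10194953).

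The genes whose profiles over the 6 arrays were nearest to each maintenance gene were found by the root mean square distance between mean-centred log2 values, over 19774 other genes. For UHRF1 they were DSN1, a kinetochore protein, DTYMK, a thymidylate kinase, and RPL39L, a ribosomal protein, at distances of 0.04 to 0.06. For HELLS they were FANCG of DNA crosslink repair, POLE, the leading-strand polymerase, and LIN9 of the DREAM complex, at distances of 0.03 to 0.04. For DNMT1 they were PPM1D, a p53 pathway phosphatase, SCCPDH and PIGX, at distances of about 0.02. The distances describe likeness over 6 arrays in 2 groups, and any gene with a fold change of like size and small scatter comes out near.

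The pair of de novo methyltransferases split. DNMT3B fell, with intensities of 248, 236 and 257 on the PD0332991 arrays, against 894, 945 and 815 on the vehicle arrays. Its highest PD0332991 array was far under its lowest vehicle array. The log2 fold change was −1.77 (SE 0.07, limma adjusted p = 3.9e-05), or 3.42-fold lower, the most negative of the 9 members by brightest probe set. DNMT3B rests on 1 probe set, again ending in _s_at, and lies on chromosome 20 (32762385 to 32809356).

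DNMT3A rose on each of its 3 probe sets. The brightest read 1436, 1382 and 1386 with PD0332991, against 1032, 981 and 882 with vehicle. The PD0332991 arrays were all higher and close together, and the vehicle arrays spread more. The log2 fold change was 0.53 (SE 0.07, limma adjusted p = 0.0029), which is 1.45-fold higher. The second read 858, 853 and 885 with PD0332991, against 614, 619 and 598 with vehicle, and gave 0.49 (SE 0.06, adjusted p = 0.0024). The third was dim, at 34.5, 37.4 and 45.3 with PD0332991, against 19.9, 18.7 and 27.2 with vehicle, and gave 0.54 (SE 0.12, adjusted p = 0.022). The likeness of these 3 values depends on the constant for the dim set, which was at 0.81 with a constant of 1 and at 0.26 with 64, while the brighter sets stayed between 0.46 and 0.54 with either. The third lost its call without PD0332991 replicate 2 (adjusted p = 0.061) or 3 (0.069), or without vehicle replicate 1 (0.083) or 2 (0.080). DNMT3A lies on chromosome 2 (25227874 to 25342590).

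Against the de novo genes, DNMT1 thus sat between its relatives. The per-array log2 value of DNMT1 minus DNMT3A was −1.12 ± 0.04 with PD0332991 and 0 ± 0.12 with vehicle, and that of DNMT1 minus DNMT3B was 1.18 ± 0.07 with PD0332991 and 0 ± 0.10 with vehicle (SD, n = 3 each, vehicle mean set to 0). Each had an exact permutation p of 0.1, the smallest possible, and 0.1 after adjustment over the 6 pairs compared.

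**Figure D2:**
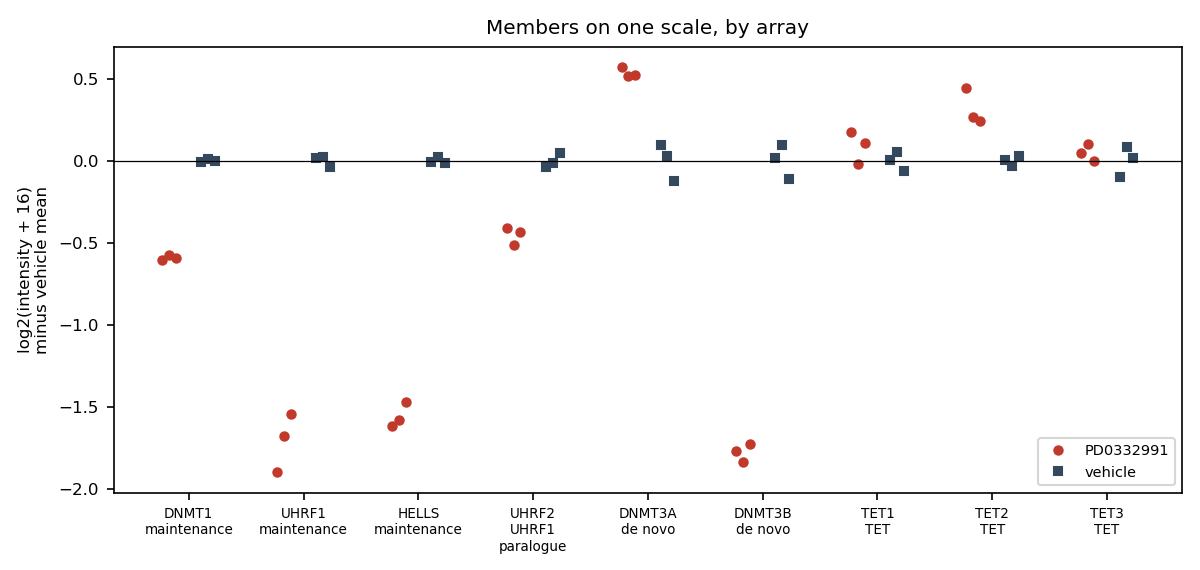
Log2(intensity + 16) of each gene's brightest probe set on every array, minus that gene's vehicle mean, with PD0332991 (circles) left of vehicle (squares). UHRF1, HELLS and DNMT3B lie between −1.90 and −1.47 with PD0332991, DNMT1 and UHRF2 between −0.61 and −0.41, and DNMT3A between 0.51 and 0.57.

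The TET genes had the smallest log2 fold changes of the 9 by brightest probe set, though not over all sets, as the dimmer TET1 set shows. TET2 read 1121, 991 and 976 on its brightest probe set with PD0332991, against 824, 804 and 838 with vehicle. All PD0332991 arrays were higher, and replicate 1 was the highest of them. The log2 fold change was 0.32 (SE 0.07, limma adjusted p = 0.019), which is 1.25-fold higher. The adjusted p was 0.064 without vehicle replicate 1 and 0.072 without vehicle replicate 2. Over all 54613 probe sets, this set and another TET2 set passed with 0.32 (adjusted p = 0.033) and 0.39 (SE 0.10, adjusted p = 0.034), and the third was at 0.56 (SE 0.16, adjusted p = 0.057). The second read 239, 203 and 227 with PD0332991, against 164, 152 and 183 with vehicle. The third read 104, 107 and 149 with PD0332991, against 68.5, 68.0 and 90.9 with vehicle. On all 3 sets every PD0332991 array was above every vehicle array. Over all probe sets, the brightest lost its call with any 1 array left out (adjusted p 0.058 to 0.11), and the second lost it without PD0332991 replicate 1 or 3 or vehicle replicate 1 or 2 (0.098 to 0.11). TET2 lies on chromosome 4 (105145875 to 105279803).

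TET1 had probe sets that disagreed. The brighter, whose ID ends in _x_at and which may also hybridise to other transcripts, read 500, 435 and 476 with PD0332991, against 443, 458 and 421 with vehicle. Its groups overlapped, and its log2 fold change was 0.09 (95% interval −0.09 to 0.27, limma adjusted p = 0.44). The dimmer read 146, 150 and 140 with PD0332991, against 297, 280 and 311 with vehicle. There the PD0332991 arrays lay well under the vehicle arrays and close together, and the log2 fold change was −0.95 (SE 0.07, adjusted p = 3.8e-04). The gene's mean over both sets was at −0.43 (adjusted p = 0.0017). What the brighter set measures beside TET1 was not tested. TET1 lies on chromosome 10 (68560337 to 68694487).

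TET3 did not pass on any of its 3 probe sets. The brightest read 1240, 1284 and 1197 with PD0332991, against 1115, 1269 and 1213 with vehicle. The groups overlapped, and the log2 fold change was 0.05 (95% interval −0.12 to 0.22, limma adjusted p = 0.66). Without vehicle replicate 1, the lowest of its group, it was −8.6e-04. The second read 187, 185 and 183 with PD0332991, against 176, 177 and 197 with vehicle, and gave 0.01 (95% interval −0.16 to 0.18). The third was at 3.30 ± 1.65 with PD0332991 and 5.16 ± 4.84 with vehicle (SD, n = 3 each), under the constant of 16, and measures little. TET3 lies on chromosome 2 (73983631 to 74135498).

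**Figure D3:**
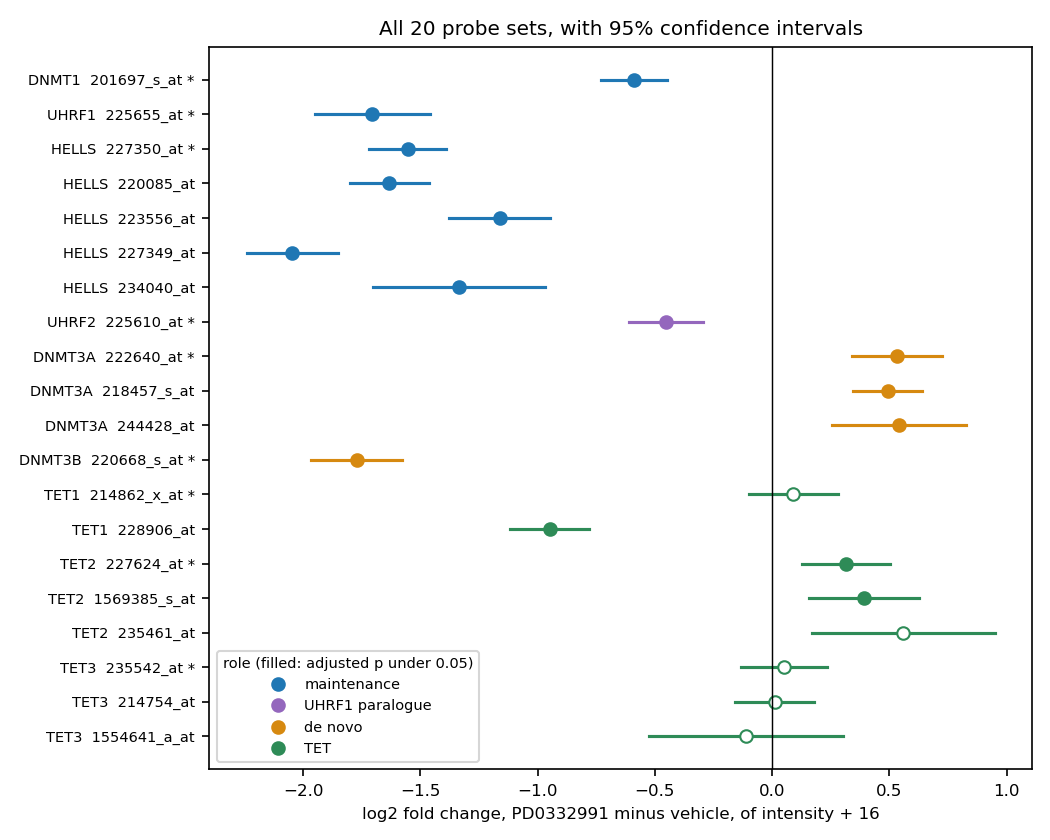
Log2 fold change, PD0332991 minus vehicle, of all 20 probe sets of the 9 genes, with 95% confidence intervals from limma. Colours give the role, filled points passed an adjusted p under 0.05 over all probe sets, and an asterisk marks the brightest set of a gene. All 7 maintenance sets lie left of 0, the DNMT3A and DNMT3B sets lie on opposite sides, and the TET1 sets lie apart.

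By brightest probe set, the mean log2 fold change was −1.28 for the maintenance genes, −0.62 for the de novo genes and 0.15 for the TET genes. The TET mean is of 1 gene that passed and 2 that did not, and its sign is not settled: it was −0.19 with _x_at and _s_at sets dropped and −0.0083 with probe sets averaged. Per array, maintenance minus de novo was −0.66 ± 0.10 with PD0332991 and 0 ± 0.09 with vehicle, and maintenance minus TET was −1.44 ± 0.14 with PD0332991 and 0 ± 0.03 with vehicle (SD, n = 3 each, vehicle mean set to 0). De novo minus TET was −0.77 ± 0.05 with PD0332991 and 0 ± 0.10 with vehicle. No p is given for these means over chosen genes. The de novo mean is of 2 genes on opposite sides of 0, so it describes neither. With all _x_at and _s_at sets dropped, which leaves out DNMT1 and DNMT3B altogether and takes the dimmer TET1 set, maintenance minus de novo was −2.16 and de novo minus TET was 0.73. The remaining pairs were HELLS minus TET1 at −1.64, DNMT1 minus TET2 at −0.91 and DNMT1 minus TET3 at −0.64, each with an exact permutation p of 0.1. HELLS minus TET1 was −0.61 with the dimmer TET1 set.

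Partners of these enzymes were read from 6 lists with 118 genes, of which 108 were measured. Of 17 maintenance partners, 10 fell and 2 rose, with a median log2 fold change of −0.30, where 13.6% and 15.6% of all genes fell and rose. PCLAF, the PCNA-associated factor that UHRF1 ubiquitinates, fell by 2.37 on the log2 scale (SE 0.09, limma adjusted p = 3.4e-05), while its second probe set, an _x_at set, was at −0.11 (adjusted p = 0.52). LIG1, the replicative ligase that UHRF1 also binds, averaged 216 ± 18.1 with PD0332991 and 840 ± 31.1 with vehicle (SD, n = 3 each), and its log2 fold change was −1.88. PCNA, the sliding clamp that holds DNMT1 at the fork, was at −1.39 and CDCA7, the activator of HELLS, was at −1.35, and both fell. HDAC1, a deacetylase found with DNMT1, was at 0.24 (adjusted p = 0.018) and DMAP1, a DNMT1-associated protein, at 0.24 (adjusted p = 0.044). No partner passed as higher once PD0332991 replicate 2 or 3, or vehicle replicate 1 or 2, was left out, and 1 did so without PD0332991 replicate 1. With all _x_at and _s_at sets dropped, 5 partners fell and 1 rose.

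Of 12 partners of de novo methylation and its chromatin marks, 4 fell and 1 rose, with a median of −0.03. Of all genes, 13.6% fell and 15.6% rose. The 3 core subunits of Polycomb repressive complex 2, a histone H3K27 methyltransferase, were among the 4. EZH2, its catalytic subunit, averaged 1246 ± 45.0 with PD0332991 and 3375 ± 208 with vehicle (SD, n = 3 each), and its log2 fold change was −1.42 (SE 0.07, limma adjusted p = 6.2e-05). EED was at −0.60 and SUZ12 at −0.32. TRIM28, a corepressor that brings in histone and DNA methyltransferases, was at −0.46, and SETDB1, its H3K9 methyltransferase partner, rose by 0.34 (adjusted p = 0.0046), while its other probe set was at −0.28 (adjusted p = 0.10). DNMT3L, a cofactor of DNMT3A and DNMT3B in germ cells, was at 10.5 with PD0332991 and 11.3 with vehicle, both under the constant of 16, and is named after its value was seen.

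Among 14 genes listed as readers of methylated CpG and their complexes, none fell and 2 rose at an adjusted p under 0.05 in limma. Their median was 0.09, and 13.6% of all genes fell and 15.6% rose. MBD5 is listed for its methyl-CpG-binding domain family, and whether it binds methylated CpG was not tested. It averaged 373 ± 11.5 with PD0332991 and 171 ± 23.2 with vehicle (SD, n = 3 each), and its log2 fold change was 1.06 (SE 0.10, adjusted p = 5.9e-04). Of its other sets, 1 rose and 1 was at −0.16 (adjusted p = 0.47). ZBTB4, a zinc finger protein that binds methylated CpG, rose by 0.45 (adjusted p = 0.014), with 0.06 on its _x_at set. The count that rose was 1 without vehicle replicate 2 and 3 without vehicle replicate 3, and 1 reader fell once _x_at and _s_at sets were dropped.

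Of 19 partners of active demethylation, 7 rose and 4 fell, with a median of 0.19, where 15.6% and 13.6% of all genes rose and fell. All 3 GADD45 genes, stress proteins that have been linked to demethylation through repair, rose. GADD45B averaged 1321 ± 75.4 with PD0332991 and 592 ± 39.6 with vehicle (SD, n = 3 each), and its log2 fold change was 1.14 (SE 0.08, limma adjusted p = 1.9e-04), and all 4 of its probe sets rose. GADD45A was at 0.90 (adjusted p = 0.0030) and GADD45G at 1.28 (SE 0.30, adjusted p = 0.022). GADD45G was dim, at 58.9 ± 14.7 with PD0332991 and 15.9 ± 10.7 with vehicle (SD, n = 3 each). UNG, the uracil glycosylase, fell by 1.21 and IDH2, an enzyme that makes the 2-oxoglutarate that TETs use, by 0.61 on the log2 scale. TDG, the glycosylase that removes the bases oxidised by TETs, was at 0.23 (adjusted p = 0.028) and is named after its value was seen. Over all probe sets this TDG set was not called (limma adjusted p = 0.054), and the second TDG set was called higher, at 0.59 (adjusted p = 0.011).

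Of 20 genes of folate and methyl donor supply, 7 fell and 1 rose, with a median of −0.12. Of all genes, 13.6% fell and 15.6% rose. TYMS, thymidylate synthase, averaged 2940 ± 409 with PD0332991 and 10899 ± 72.5 with vehicle (SD, n = 3 each), and its log2 fold change was −1.89 (SE 0.11, limma adjusted p = 1.1e-04). SHMT2, which moves 1-carbon units from serine, was at −1.09, MTHFD1 at −0.74 and the folate carrier SLC19A1 at −0.54, and all of these fell. The other 6 probe sets of SLC19A1 were not called. MTR, methionine synthase, was at 0.27 (adjusted p = 0.021), and its second probe set was called lower, at −0.43 (adjusted p = 0.022). No gene of this list rose without PD0332991 replicate 1 or 3 or vehicle replicate 1, and 2 did without vehicle replicate 3. MAT2A, which makes the methyl donor S-adenosylmethionine, was at −0.17 (adjusted p = 0.072) and AHCY, which clears its product, at −0.18 (adjusted p = 0.39), both named after their values were seen. The second MAT2A set was called lower, at −0.39 (adjusted p = 0.028).

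Germline and cancer-testis genes, many of which are silenced by promoter methylation in body cells, were the least bright list. Of 26 measured, 3 rose, 1 fell and 22 were not called, where 15.6% and 13.6% of all genes rose and fell. The list had a median log2 fold change of 0.02 and a median intensity of 25.2 with PD0332991 and 21.5 with vehicle. TDRD9, a Tudor-domain helicase of the germline, averaged 56.3 ± 5.27 with PD0332991 and 23.6 ± 12.8 with vehicle (SD, n = 3 each), and its log2 fold change was 0.91 (SE 0.22, limma adjusted p = 0.024). STK31 was at 0.49 (adjusted p = 0.037), from intensities of 34.8 with PD0332991 and 20.3 with vehicle. ASZ1, a germline protein of piRNA biogenesis, was bright in this list, at 1254 with PD0332991 and 983 with vehicle, and rose by 0.35 (adjusted p = 0.013). SSX1 fell by 0.38 on an _x_at set (adjusted p = 0.0072). The count that rose was 0 without vehicle replicate 2, 1 without PD0332991 replicate 1 or 2 or vehicle replicate 1, and 2 without PD0332991 replicate 3. The count that fell was 2 without PD0332991 replicate 2 or 3. DNA methylation itself was not measured on these arrays.

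**Figure D4:**
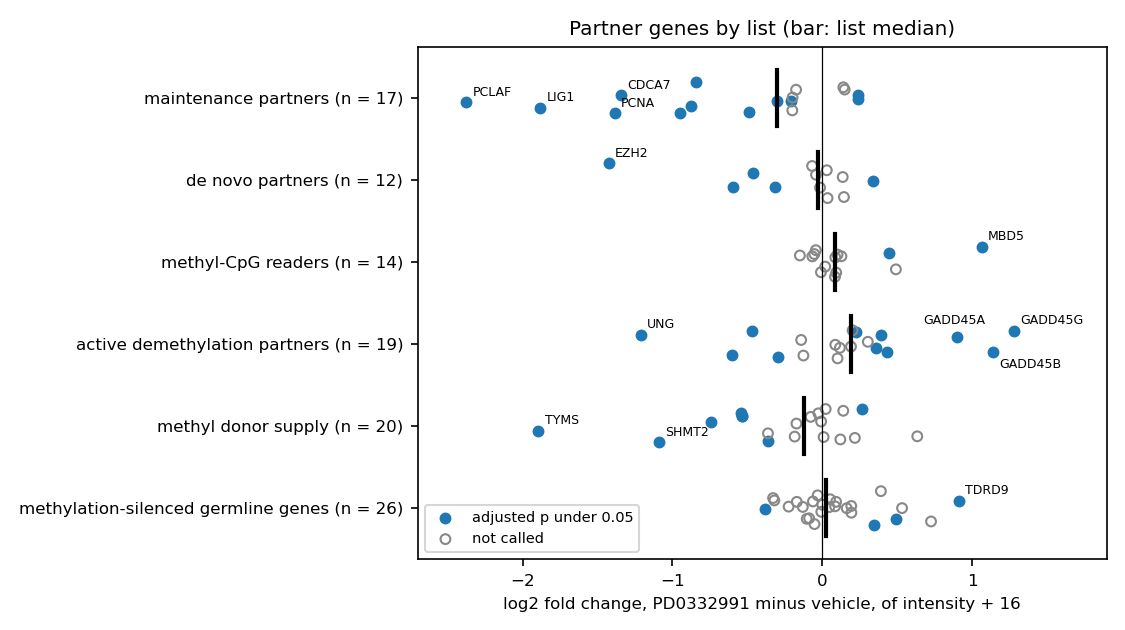
Log2 fold change, PD0332991 minus vehicle, of the measured genes of 6 partner lists, 1 point per gene by its brightest probe set. Filled points passed an adjusted p under 0.05 over all genes, open points did not, and black bars are list medians, which run from −0.30 for maintenance partners to 0.19 for active demethylation partners. Points are spread vertically for legibility alone.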

How the data were processed

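Total RNA of KOPTK1 cells was biotin-labelled and hybridised to Affymetrix arrays, per the labels' protocols. The deposited file holds 1 linear intensity per probe set and array, summarised by the authors. The sources used here do not state the background correction, the summarisation or the scaling. That the scale is linear follows from the range of the values (0.56 to 16362), and no detection calls were used. No further normalization was applied. Values are relative to other RNAs of an array, and total RNA per cell is not measured.

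The 62 control probe sets were left out. The platform annotation of 2016 gave 1 symbol for 41091 of 54613 probe sets, several for 1801 and none for 11721. Older symbols were replaced through their gene IDs with those of RefSeq GRCh38.p14, and 54 probe sets kept their old symbol. The brightest single-symbol probe set over the 6 arrays stood for its gene, with no filter on dim genes. Groups were compared on log2(intensity + 16) with limma 3.58.1 (R 4.3.3) by two-sided moderated tests with 4 residual degrees of freedom and Benjamini-Hochberg adjustment. Differences between pairs of members used exact permutation tests.

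The members, lists, tests and alternatives were chosen with earlier results of these data known. Named genes were the members, up to 4 called genes of each pathway list by size of change, up to 2 called against most, all called where 5 or fewer passed, and the 3 nearest profiles of each maintenance gene. Marker genes and those marked so in the text were named after their values were seen. The code was tested on simulated data with 19775 genes in this comparison. Of 50 genes with a log2 change of 0.5 it recovered 15, of 50 with 1 it recovered 42, of 50 with 2 it recovered 49 and of 50 with 3 it recovered 50, and 5 of 19575 unchanged genes were called. Far fewer genes changed there than the 29.3% called in these data, so these rates need not hold here. Alternatives left out each array, added a replicate block, and changed the scaling (quantile, median or 75th percentile), the pseudocount (1 or 64), the filter on dim genes, the choice of probe set, the variance model (trend, robust, array weights) and the threshold (0.01). Probe sets were not located within transcripts here. Figures were drawn with matplotlib 3.10.9.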

Additional observations from a re-analysis of the deposited data

How the results depend on the processing

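Under the 19 alternatives run, DNMT1, UHRF1, HELLS, UHRF2, DNMT3A and DNMT3B kept their direction and their side of the threshold wherever they were measured, and DNMT1 and DNMT3B have no value once _x_at and _s_at sets are dropped. Across the alternatives UHRF1 ran from −1.79 to −1.61, HELLS from −1.60 to −1.51, DNMT3B from −1.83 to −1.61, DNMT1 from −0.60 to −0.53, UHRF2 from −0.47 to −0.42 and DNMT3A from 0.47 to 0.59. TET1 was at −0.43 when its probe sets were averaged and at −0.95 without _x_at and _s_at sets. TET3 was at −0.017 when its probe sets were averaged. With 1 array left out TET3 ran from −8.6e-04 to 0.091 by its brightest set, from −0.015 to 0.060 by its second and from −0.26 to 0.062 by its dimmest. With 1 array left out the members that rose numbered 1 to 2, member probe sets that rose 2 to 5 and pathway list genes that rose 9 to 17. A threshold of 0.01 gave 1736 lower and 1787 higher genes, 1 member and 2 member probe sets higher and 6 list genes higher. A pseudocount of 1 left 3 member probe sets higher. Without _x_at and _s_at sets 17 list genes fell, but list genes with only such sets then have no value. In that setting maintenance minus de novo was −2.16 and de novo minus TET was 0.73, where 7 members remain. With the mean of probe sets, maintenance minus TET was −1.27 and de novo minus TET −0.62. Same-numbered arrays correlated in their deviations from group means at 0.0033, 0.076 and 0.083, and arrays of unlike number at −0.079 to 0.022. Of the 6 arrays, 5 correlated best with their own number. With correlations this small, whether the replicate numbers pair the arrays is not settled. With the number as a replicate block, 5 members fell and 2 rose, as without it, and 2273 genes were lower and 2520 higher, against 2698 and 3088. The block also took pathway list genes that rose to 13, against 16, maintenance partners that rose to 0, against 2 (HDAC1 and DMAP1), and methyl-CpG readers that rose to 1, against 2. Over all probe sets the brightest TET2 set lost its call (adjusted p = 0.074) and the third passed (0.017). The exact permutation tests of pairs cannot go below their 0.1 and so say nothing of stability. With 3 arrays a group, 25.5% of values under 16 and no detection calls, changes of dim probe sets are the least certain.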
